A study of Mus musculus with 14 samples.

Results

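H2AK119ub regions without a BMI1 region are places where the ubiquitin mark of Polycomb was called in resting cardiac Sca1+CD45- cells and BMI1 was not called by the same rule. Overlapping peaks (1 bp or more) of the 3 Homeostasis H2AK119ub lists were merged, and a region was kept where at least 2 of the 3 lists had a peak. BMI1 regions were made in the same way from the 3 Homeostasis BMI1 lists. Of 6341 H2AK119ub regions, 2576 (40.6%) overlapped no BMI1 region and are called H2AK119ub-only regions here, while 3765 did and are called shared regions. The name refers to the rule alone, because 1530 of the 2576 did hold a BMI1 peak of at least 1 list.

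Chromatin immunoprecipitation and sequencing of BMI1 and H2AK119ub used heart cells of C57BL/6 mice, 6 to 8 weeks old, enriched by magnetic sorting for Sca1, a surface antigen of stromal and progenitor cells, and against CD45, the leukocyte antigen. Homeostasis mice had received PBS, and Damage mice paraquat, a herbicide that generates superoxide, injected once into the peritoneum at 20 mg/kg. Each treatment and antibody had 3 libraries and 1 deposited peak list per library. Culture at 3% oxygen is also described in the labels, but not whether the cells used here went through it. Nor do they state that replicates were separate mice. A p-value here therefore measures the spread between these samples only, and that spread may be technical. Expression was not measured, so the cell type could not be checked against its markers. The 2 Input libraries were not analysed here. The Homeostasis H2AK119ub lists held 2000, 13487 and 7523 peaks in replicates 1, 2 and 3, and the BMI1 lists 5020, 7513 and 4072. Read depth is unknown, because the lists give positions without counts.

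Polycomb repressive complex 1 attaches a single ubiquitin to histone H2A, at the lysine that gives H2AK119ub its name, through its RING1A or RING1B subunit. BMI1, also known as PCGF4, belongs to the canonical form of the complex, which also contains a CBX protein. Variant forms built on other PCGF proteins with RYBP or YAF2 place the same mark, and the deubiquitinases BAP1 and USP16 remove it. In many cell types the mark is known for covering CpG-rich promoters of silent developmental genes, such as the HOX clusters.

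The promoter sequences are shown first because promoters are the textbook site of the mark. RefSeq windows of GRCm38.p6, which reach from 250 bases before a transcription start to 50 after it, were given for 27025 genes. Of 2489 H2AK119ub-only regions on chromosomes with windows, 2 (0.0804%) overlapped a window, against 10 of 3612 shared regions (0.277%) and 0.197% of all H2AK119ub regions. Both windows belong to long noncoding RNA genes. That of 1700017M07Rik lies at chr3:35276082-35276381 on the minus strand and that of Gm40204 at chr4:92241514-92241813 on the plus strand. They are printed 5′ to 3′ on the strand of the gene, with the bases inside the H2AK119ub-only region in capitals.
1700017M07Rik: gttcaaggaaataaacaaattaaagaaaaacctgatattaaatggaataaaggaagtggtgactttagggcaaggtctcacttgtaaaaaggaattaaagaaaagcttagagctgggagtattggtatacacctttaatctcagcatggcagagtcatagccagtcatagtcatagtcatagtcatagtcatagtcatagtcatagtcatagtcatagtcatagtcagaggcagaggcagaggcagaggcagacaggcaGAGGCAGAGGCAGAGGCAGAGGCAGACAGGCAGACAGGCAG
Gm40204: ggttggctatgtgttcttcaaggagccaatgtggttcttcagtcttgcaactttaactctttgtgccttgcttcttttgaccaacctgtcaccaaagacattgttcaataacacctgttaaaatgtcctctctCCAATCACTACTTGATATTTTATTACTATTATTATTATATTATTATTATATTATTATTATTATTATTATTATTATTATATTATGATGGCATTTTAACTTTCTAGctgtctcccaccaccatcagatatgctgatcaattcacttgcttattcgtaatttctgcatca

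Neither window resembled a CpG-rich promoter in these letters. The 1700017M07Rik window held 0 CG dinucleotides at 42.7% GC and the Gm40204 window 1 at 31.7% GC, while the median over all 32851 windows was 7 CG dinucleotides at 52.7% GC. Both windows contained a short tandem repeat. The 1700017M07Rik window had an unbroken run of 65 bases of the unit agtcat, which ends 32 bases before the capitals, and the capitals themselves hold a run of 26 bases of the unit gaggca. The Gm40204 window had a run of 30 bases of the unit tat within its capitals. An unbroken repeat of a unit of 1 to 6 bases that reached 24 bases or more was present in 350 of all 32851 windows (1.07%). It was present in 5 of the 28 windows that overlapped a homeostasis peak of any list and in 1 of the 10 windows under shared regions. The length of such a run is the same on either strand. At 1700017M07Rik all 3 H2AK119ub lists and BMI1 replicate 2 had a peak (region chr3:35276010-35276122), and at Gm40204 H2AK119ub replicates 2 and 3 and BMI1 replicate 3 did (region chr4:92241647-92241750).

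The H2AK119ub-only regions were in nearly all cases regions of H2AK119ub replicates 2 and 3. Replicates 2 and 3 without replicate 1 accounted for 2451 of the 2576 regions (95.1%), replicates 1 and 2 for 28, and replicates 1 and 3 for 13. All 3 lists agreed at 84 regions (3.26%, exact 95% binomial interval 2.61 to 4.02, counting error only), against 1483 of 3765 shared regions (39.4%). A replicate 1 peak, from the shortest of the 3 lists, was present at 4.85% of H2AK119ub-only regions and at 42.8% of shared regions. These shares describe the lists that chose the regions and carry no test. The number of regions rested on single libraries: defined without H2AK119ub replicate 2 there were 98 H2AK119ub-only regions, 5.91% of H2AK119ub regions, and without replicate 3 there were 111 (6.81%). Without BMI1 replicate 2 there were 4097 (64.6%).

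BMI1 peaks fell inside most H2AK119ub-only regions without reaching the rule. At least 1 BMI1 list had a peak at 1530 of the 2576 (59.4%, interval 57.5 to 61.3), against 83.5% of all H2AK119ub regions, and the rule itself used these lists. Exactly 1 list had a peak at 1505 regions, and no list did at 1046. The lone peak came from BMI1 replicate 2, the longest BMI1 list, at 1209 regions, from replicate 1 at 173 and from replicate 3 at 123. With each library counted wherever it had a peak, BMI1 replicate 1 was present at 7.38% of H2AK119ub-only regions, replicate 2 at 47.9% and replicate 3 at 5.16%, and at 80.7%, 97.8% and 79.1% of shared regions. The plot of list support by region set shows these shares side by side.

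**Figure D1:**
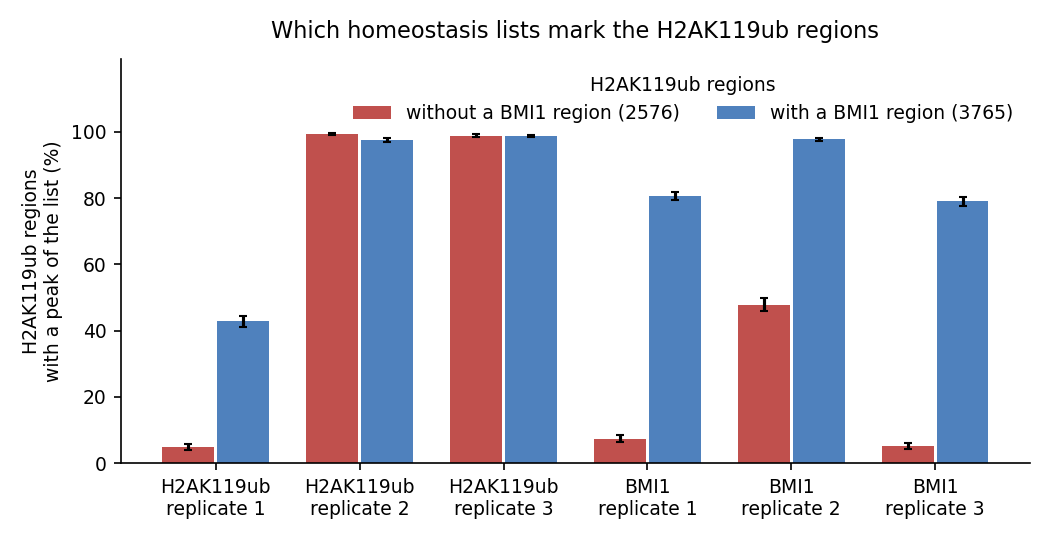
Share of regions (%) with a peak of each of the 6 homeostasis lists, for the 2576 H2AK119ub regions without a BMI1 region (red) and the 3765 with one (blue); error bars are exact 95% binomial intervals and cover counting error only. BMI1 replicate 2 had a peak at 47.9% of the red regions, and BMI1 replicates 1 and 3 at 7.38% and 5.16%.

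Where a lone BMI1 peak was present it sat on the H2AK119ub peaks. Its centre lay a median of 6 bp from the mean centre of the H2AK119ub peaks (n = 1505, 95th percentile 48.9 bp), and the centres of the H2AK119ub replicate 2 and 3 peaks were also a median of 6 bp apart at H2AK119ub-only regions (n = 2535) and 5 bp at shared regions. Peaks were short for a mark often described as broad. H2AK119ub-only regions had a median width of 108 bp (range 101 to 296) and shared regions 109 bp (101 to 387), since most deposited peaks were 101 bp wide. Taken from the BMI1 side, 1233 of the 3230 peaks of BMI1 replicate 2 that lay in no BMI1 region fell on H2AK119ub-only regions (38.2%), as did 190 of 1489 for replicate 1 (12.8%) and 133 of 625 for replicate 3 (21.3%).

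At the threshold of the rule, 1442 H2AK119ub-only regions had 2 H2AK119ub lists and 1 BMI1 list, just inside, and 1313 shared regions had 2 of each, just outside. A further 25 H2AK119ub-only regions held peaks of 2 or 3 BMI1 lists that did not overlap one another. The widest H2AK119ub-only region of all, chr13:95829114-95829409 in Iqgap2, a scaffold protein gene of the IQGAP family, was such a case with peaks of all 6 lists. Its BMI1 peaks lay at 95829193 to 95829293 in replicate 1, 95829088 to 95829188 in replicate 2 and 95829298 to 95829398 in replicate 3. The region thus counts as lacking BMI1 through the positions of the peaks and not through a missing list.

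**Figure D2:**
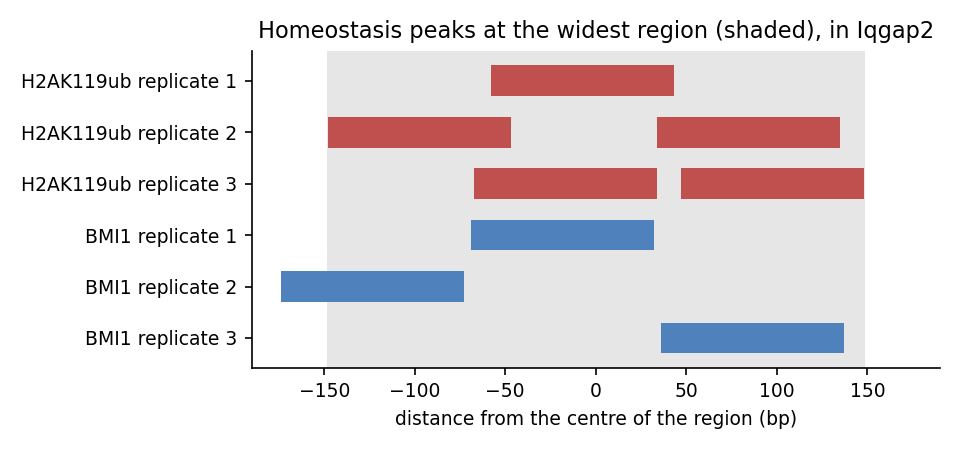
Peaks of the 6 homeostasis lists at the widest H2AK119ub-only region (296 bp, shaded), in Iqgap2, by distance from its centre in bp; H2AK119ub peaks are red and BMI1 peaks blue. The 3 BMI1 peaks each overlap the region and do not overlap one another.

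H2AK119ub-only regions were dispersed. The nearest BMI1 region was a median of 194 kb away, 1758 of the 2571 regions on assembled chromosomes (68.4%) were over 100 kb from any, and 66 (2.57%) were within 1 kb. The nearest other H2AK119ub-only region was a median of 350 kb away, and 42 regions (1.63%) had another within 10 kb. Among the 1044 without a BMI1 peak, 134 had a BMI1 peak within 150 bp outside the region and 883 had none within 4 kb. On autosomes the share of H2AK119ub regions that were H2AK119ub-only ran from 36.3% on chromosome 18 to 47.4% on chromosome 4. On the X chromosome it was 42.3% (101 of 239) and on the Y chromosome 35.7% (75 of 210).

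All 3 H2AK119ub lists and no BMI1 list had a peak at 16 regions, the strictest form of the mark without BMI1 in these lists. Of these, 9 had a BMI1 peak within 150 bp and 7 had none within 4 kb. The closest neighbour was in Cdc27, a subunit gene of the anaphase-promoting complex, where the region chr11:104528256-104528369 lay 13 bp from a BMI1 peak. A region inside Plekha5 (chr6:140500436-140500612) lay 25 bp from a BMI1 peak, and a region 40.3 kb from Insig1, a regulator of sterol synthesis, lay 30 bp from a BMI1 peak (chr5:28118945-28119128). The region nearest to Fgf14 (chr14:124801917-124802060), 124 kb from that gene, lay 67 bp from a BMI1 region and stood within the first 0.15% of the H2AK119ub replicate 1 list, 0.0445% of replicate 2 and 0.0798% of replicate 3.

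The other end of this group was far from any BMI1 peak. A region inside Otc, the urea cycle enzyme ornithine transcarbamylase, lay 397 kb from the nearest BMI1 peak of any list (chrX:10302075-10302190). A region inside Enox2, which encodes a cell surface oxidase, lay 279 kb away (chrX:49159173-49159285). Regions whose nearest protein-coding genes were Kcnk9, a leak potassium channel (chr15:72330143-72330250), and Ttll7, a tubulin polyglutamylase (chr3:147863775-147863907), lay 225 kb and 223 kb from a BMI1 peak. These regions lay 172 kb and 880 kb from the genes.

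H2AK119ub-only regions stood lower in the deposited lists than shared regions did. What the order of a list means is not given in the sources used here, but the order of overlapping peaks was similar between lists, with Spearman's rho between 0.63 and 0.76 over the 15 pairs of homeostasis lists (1544 to 6298 peaks per pair, across peaks, which share libraries and are not replicates). Within H2AK119ub-only regions rho was 0.36 between H2AK119ub replicates 2 and 3 (n = 2535), against 0.74 over all 6169 overlapping peaks of that pair. These 2 values are not directly comparable, because H2AK119ub-only regions span a narrower part of both lists. Their quartiles were 29.2% and 64.0% from the top in replicate 2 and 48.8% and 83.8% in replicate 3. A rho over shared regions alone is not given here. From the top, H2AK119ub-only regions had a median position of 69.4% in H2AK119ub replicate 1, 44.3% in replicate 2 and 67.0% in replicate 3. Shared regions had 48.9%, 15.0% and 28.1%, and peaks in no region 42.3%, 69.0% and 72.6%. In replicates 2 and 3 H2AK119ub-only regions were thus placed between shared regions and peaks that did not recur, and in replicate 1 below both.

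In H2AK119ub replicates 2 and 3, regions that held a BMI1 peak lay between shared regions and those without one, and in replicate 1 they did not. In replicate 2, H2AK119ub-only regions with a BMI1 peak had a median position of 37.9% and those without one 55.7%, and in replicate 3 the medians were 62.8% and 74.0%. In replicate 1 they were 72.4% (n = 96) and 67.4% (n = 29). Among H2AK119ub regions from the first 10% of the replicate 2 list 3.55% were H2AK119ub-only, and from the last 10% 91.2% were. In replicate 3 these shares were 3.61% and 77.3%, and in replicate 1 3.92% and 16.5%. Regions with no peak of any BMI1 list made up 0.68% of the first 10% of replicate 2 and 56.1% of the last. The BMI1 peaks that did fall on H2AK119ub-only regions were also low in their own lists, at medians of 72.9%, 63.0% and 65.4% in BMI1 replicates 1, 2 and 3, against 41.8%, 27.8% and 45.4% for BMI1 peaks on shared regions. The part of list length and peak strength in the absence of a BMI1 region was not tested.

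**Figure D3:**
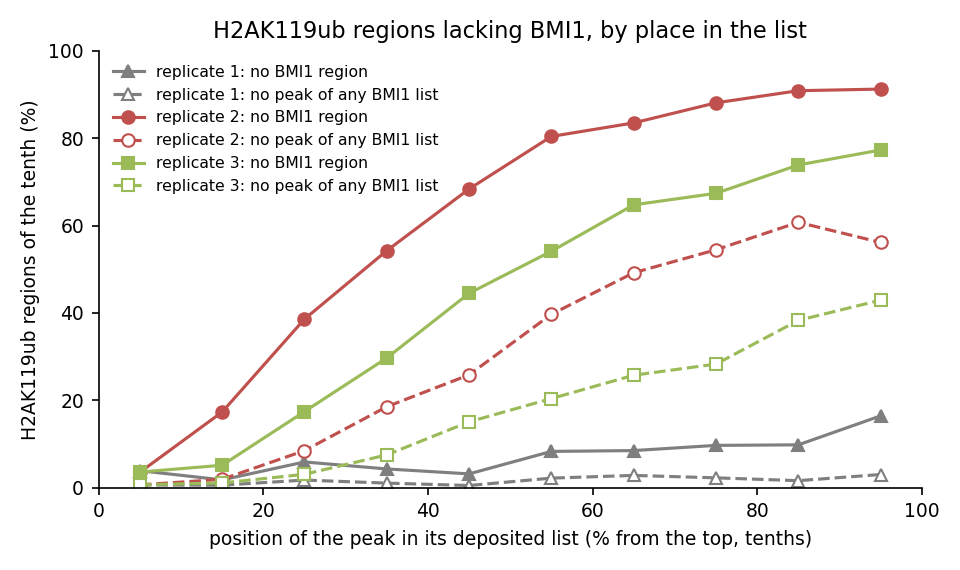
Share (%) of the H2AK119ub regions in each successive 10% of a Homeostasis H2AK119ub list, from its top, that had no BMI1 region (filled symbols) or no peak of any BMI1 list (open symbols), for replicates 1, 2 and 3. In replicate 2 the share without a BMI1 region ran from 3.55% in the first 10% to 91.2% in the last.

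To see whether such regions recurred in a library that had not chosen them, each homeostasis list was left out in turn, both region sets were defined from the other 5, and the share of regions with a peak of the left-out list was taken. With H2AK119ub replicate 1 left out, 86 of 2537 H2AK119ub-only regions had its peak (3.39%), against 40.7% of shared regions. With replicate 2 left out the shares were 85 of 98 (86.7%) and 94.3%, and with replicate 3 left out 83 of 111 (74.8%) and 97.3%. The counts of 86, 85 and 83 are close to the 84 regions that all 3 lists marked under the full rule. They therefore restate that overlap and are no independent recurrence. Most of the few regions that replicate 1 supports had peaks in both longer lists, and most regions of replicates 2 and 3 had none in replicate 1.

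With a BMI1 list left out, a BMI1 region needed both remaining lists, so more than the 2576 regions counted as H2AK119ub-only. The added regions are ones the full rule calls shared because of the left-out list, so part of each share below was built in. Under the full rule, BMI1 replicates 1, 2 and 3 had a peak at 190, 1233 and 133 of the 2576 regions. For BMI1, 1064 of 3458 H2AK119ub-only regions had a peak of replicate 1 when it was left out (30.8%, against 75.1% of shared regions). For replicate 2 it was 2751 of 4097 (67.1%, against 96.4%), and for replicate 3 it was 943 of 3391 (27.8%, against 73.5%). The share at H2AK119ub-only regions divided by that at shared regions was 0.591 ± 0.446 (SD, n = 3) for H2AK119ub lists and 0.495 ± 0.175 (n = 3) for BMI1 lists. The difference of 0.0957 was smaller than the spread between libraries (two-sided exact permutation test over 20 arrangements, p = 0.8, adjusted p = 1 over 3 tests, smallest possible p 0.1). The sets compared are unlike, because leaving out an H2AK119ub list left fewer H2AK119ub-only regions and leaving out a BMI1 list left more. Within each antibody the share at H2AK119ub-only regions was also larger the longer the left-out list was. The test therefore cannot tell whether the antibodies differ. The undivided shares were 55.0% ± 45.1 and 41.9% ± 21.9, a difference of 13.1 percentage points (exact permutation p = 0.8, adjusted p = 1). Without H2AK119ub replicate 2 both differences turned negative, to -0.0689 and -2.83, and without replicate 1 they were 0.349 and 38.8. With 3 libraries an antibody the design cannot reach a p of 0.05.

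**Figure D4:**
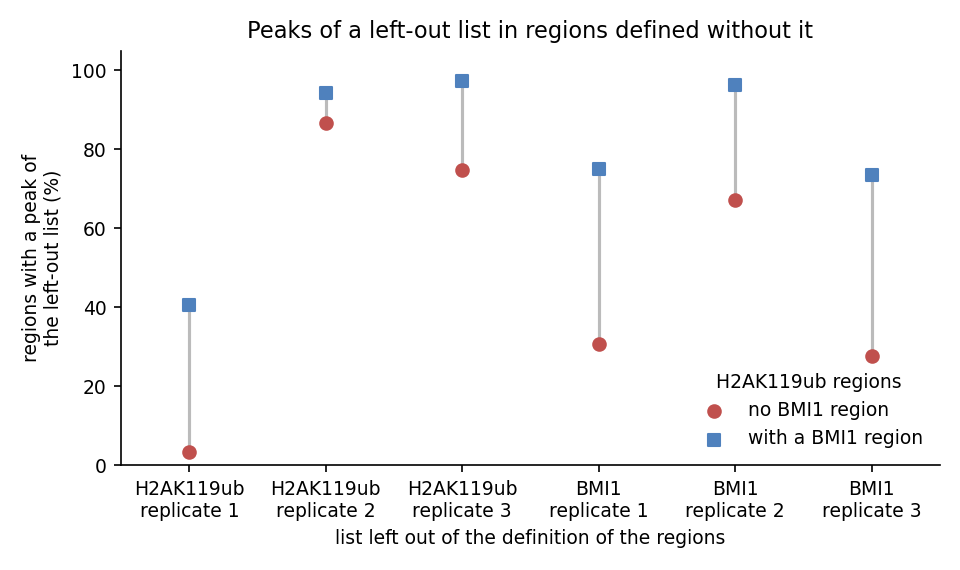
Share of regions (%) with a peak of a homeostasis list that was left out when the regions were defined, for H2AK119ub regions without (red circles) and with (blue squares) a BMI1 region; each pair of points is 1 left-out library. The red points lie below the blue in all 6 libraries and range from 3.39% to 86.7%. With a BMI1 list left out, the red regions include some that the full rule counts as shared.

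After paraquat, 1 H2AK119ub-only region had a peak. The Damage lists were short, with 31, 68 and 25 peaks for H2AK119ub and 19, 27 and 47 for BMI1. Peaks of Damage H2AK119ub replicate 1 (1 of its 31) and Damage BMI1 replicate 3 (1 of its 47) lay on the same region, chr1:12644756-12644872, which lies between genes, 47.3 kb from Sulf1, a heparan sulfate sulfatase. At homeostasis this region had peaks of all 3 H2AK119ub lists and of BMI1 replicate 1 and stood within the first 3.40%, 1.75% and 1.95% of the H2AK119ub lists. Among regions on assembled chromosomes the share with a Damage peak was 1 of 2571 H2AK119ub-only regions (0.0389%) and 8 of 3756 shared regions (0.213%), beside 0.142% of all H2AK119ub regions. The share of Damage peaks on H2AK119ub-only regions was 1.08% ± 1.86 (SD, n = 3) for H2AK119ub and 0.709% ± 1.23 (n = 3) for BMI1, a difference within the spread (exact permutation p = 1, adjusted p = 1). It turned to -0.709 percentage points without Damage H2AK119ub replicate 1.

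By position in the genome, H2AK119ub-only regions gave shares close to those of shared regions. Regions are not replicates, so the shares are descriptions without a test. The centre lay in a protein-coding gene for 861 of 2571 H2AK119ub-only regions (33.5%, interval 31.7 to 35.4) and for 32.3% of shared regions, beside 32.8% of all H2AK119ub regions. The share was 32.4% at H2AK119ub-only regions with no BMI1 peak. The nearest transcription start was a median of 49.1 kb away, against 45.7 kb for shared regions. Within 1 kb of a start lay 50 of 2489 H2AK119ub-only regions (2.01%) and 2.60% of shared regions, beside 2.36% of all, and within 5 kb lay 217 (8.72%) and 10.7%, beside 9.92%. A long noncoding RNA gene was overlapped by 244 H2AK119ub-only regions (9.49%) and 10.2% of shared regions, beside 9.91% of all. A pseudogene was overlapped by 20 (0.778%) and 0.905%, beside 0.853%. Exact 95% intervals of the 2 sets overlapped for each of these features, but they cover counting error only and do not show that the shares are equal. Within 5 kb of a start they met only at their edges (7.64 to 9.90 and 9.75 to 11.8). Over any annotated gene the shares were 42.5% and 45.3%, beside 44.2%. Within 10 kb of a start lay 17.4% and 18.5%, beside 18.1%, and within 100 kb 67.9% and 68.6%, beside 68.3%, so that most regions of either kind lay far from promoters.

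Ends of protein-coding genes lay within 500 bp of 30 H2AK119ub-only regions (1.17%) and of 1.38% of shared regions, beside 1.3% of all. The region 87 bp from an end of Etv3l, an ETS-family factor gene, had peaks of all 3 H2AK119ub lists and of BMI1 replicate 3 (chr3:87549691-87549800). Alx4, a homeobox gene of limb and skull, had a region at an end with H2AK119ub replicates 2 and 3 and BMI1 replicate 2 (chr2:93642445-93642559). A region at an end of Tenm1, a teneurin adhesion receptor gene, had H2AK119ub replicates 2 and 3 and no BMI1 peak nearer than 117 kb (chrX:43428655-43428782).

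Shares lay further apart at small RNA genes, among them tRNA and 5S ribosomal RNA genes, which RNA polymerase III transcribes. A tRNA gene was overlapped by 17 of 2571 H2AK119ub-only regions (0.661%) and by 88 of 3756 shared regions (2.34%), beside 1.66% of all. A 5S ribosomal RNA gene was overlapped by 1 and 39, beside 0.632% of all, and a small nuclear RNA gene by 1 and 10, beside 0.174%. A miRNA gene was overlapped by 0 and 1, beside 0.0158%. At the 17 tRNA regions BMI1 replicate 3 had a peak in 10, BMI1 replicates 1 and 2 in 0, and no BMI1 list in 7. BMI1 replicate 3 had a peak at 49.1% of all H2AK119ub regions, and BMI1 replicates 1, 2 and 3 had a peak in 74, 85 and 86 of the 88 shared tRNA regions. The BMI1 replicate that marked the H2AK119ub-only tRNA regions was therefore not replicate 2, the usual lone list. All 3 H2AK119ub lists marked 5 of the 10, among them n-TRtcg4 (chr11:115413761-115413863), n-TFgaa1 (chr13:21882869-21882977) and n-TDgtc3 at an end of Fcgr3, an immunoglobulin G receptor gene (chr1:171065343-171065446). The nearest BMI1 region was 0.53, 0.548 and 0.557 kb away at n-TPcgg2, n-TDgtc3 and n-TGtcc4, 24.1 kb at n-TFgaa1 and 613 kb at n-TRtcg4. The single 5S region, at n-R5s209 (chr1:26959109-26959218), had peaks of H2AK119ub replicates 2 and 3 and none of BMI1.

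The share of genes with an H2AK119ub-only region was larger the longer the genes were. A protein-coding gene was counted when an H2AK119ub-only region lay in it or within 5 kb, which applied to 910 of 21887 genes (4.16%). Shared regions reached 1262 genes (5.77%). Both kinds were present in 230 genes, which is 25.3% of the genes with an H2AK119ub-only region and 18.2% of those with a shared region. Of the 910 genes, 188 had no BMI1 peak of any homeostasis list (20.7%). These 188 had a median length of 60.3 kb, and the same share over all protein-coding genes is not given here. The median length was 111 kb for genes with an H2AK119ub-only region, 99.1 kb for genes with a shared region and 17.2 kb for all protein-coding genes. In genes under 10 kb 1.07% had an H2AK119ub-only region, in genes of 100 to 200 kb 10.4%, in genes of 500 to 1000 kb 54.8%, and in genes of 1000 kb and over 78.0%. Shared regions followed the same course with length, from 1.93% to 89.8%.

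**Figure D5:**
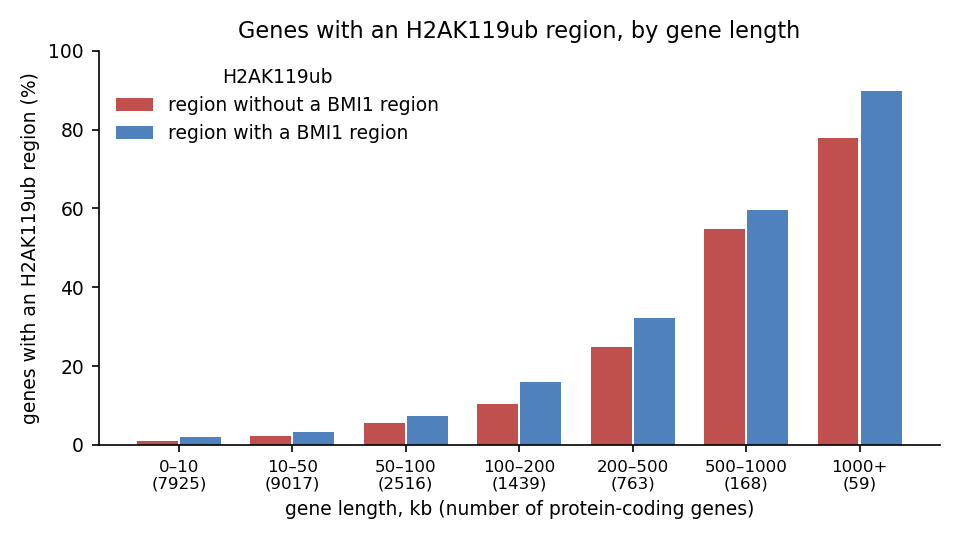
Share (%) of protein-coding genes with an H2AK119ub region without (red) or with (blue) a BMI1 region in the gene or within 5 kb, by gene length in kb; the number of genes in each class is in parentheses. The red share rises from 1.07% of genes under 10 kb to 78.0% of genes of 1000 kb and over.

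Most genes had 1 H2AK119ub-only region (807 of the 910), 77 had 2 and 26 had 3 or more, up to 5. The 5 were reached in Nckap5, Sox5 and Dpp10. Nckap5, which encodes a partner of the adaptor NCK, had 0, 12 and 7 H2AK119ub peaks in replicates 1, 2 and 3 and 3, 4 and 1 BMI1 peaks, and 3 of its 5 H2AK119ub-only regions had no BMI1 peak. Sox5, an SRY-box transcription factor of cartilage and neurons, had 1, 12 and 8 H2AK119ub peaks and 4, 4 and 3 BMI1 peaks, with a BMI1 peak at 4 of its 5 regions. Dpp10, an auxiliary subunit of Kv4 potassium channels, had 0, 15 and 10 H2AK119ub peaks and 3, 8 and 0 BMI1 peaks. Each of the 3 genes had more H2AK119ub peaks in replicates 2 and 3 than BMI1 peaks in any library, and each also held 1 or 2 shared regions. The genes were chosen by their number of H2AK119ub-only regions, nearly all of which come from replicates 2 and 3, so this excess is no independent result. In replicate 1 each had fewer H2AK119ub peaks than BMI1 peaks.

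Genes with many H2AK119ub-only regions differed in how much BMI1 they held. All 4 regions of Rbfox1, a neuronal and muscle splicing regulator, had a peak of BMI1 replicate 2, and the gene also had 5 shared regions. Csmd1, a large complement regulator gene, had 4 H2AK119ub-only and 2 shared regions, and Alk, a receptor tyrosine kinase, had 4 and 2 with 3 of the 4 free of BMI1 peaks. Cacna2d1, the auxiliary subunit of voltage-gated calcium channels that also serves heart muscle, had 3 H2AK119ub-only regions and no shared region. Its H2AK119ub peaks numbered 0, 3 and 3 and its BMI1 peaks 1, 0 and 0, and none of the 3 regions held a BMI1 peak. Car10, a carbonic anhydrase-related protein, had 3 such regions as well, with 0, 7 and 3 H2AK119ub peaks and 0, 0 and 1 BMI1 peaks. In Cacna2d1 and Car10 the mark thus recurred in replicates 2 and 3 with a single BMI1 peak per gene, though both were chosen by their number of such regions.

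Other genes held 2 H2AK119ub-only regions over a shorter span. Atp5h (4.23 kb), a subunit gene of mitochondrial ATP synthase, and Mrpl58 (8.95 kb), a mitochondrial ribosome protein gene, share the same 2 regions, which lie between them, and 1 of these is the tRNA gene n-TRtcg4. Col15a1 (106 kb), a basement membrane collagen of vessels and heart, had 2 regions (chr4:47275597-47275699 and chr4:47309738-47309845), each with a peak of BMI1 replicate 2, and 0, 3 and 3 H2AK119ub peaks. Rnf13 (99.4 kb), a ubiquitin ligase gene, had 2 regions with 0, 3 and 2 H2AK119ub peaks and no BMI1 peak of any list. Prmt8 (80.5 kb), an arginine methyltransferase gene, had 2, each with a peak of BMI1 replicate 2.

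Genes of the Polycomb machinery held 3 H2AK119ub-only regions in all. Among 33 genes of PRC1 and its partners 2 had one (6.06%, beside 4.16% of all protein-coding genes) and 2 had a shared region. Auts2, a partner of variant PRC1, had a region with all 3 H2AK119ub lists and BMI1 replicate 1 (chr5:131519709-131519811) beside 3 shared regions. Of 25 PRC2 and deubiquitinase genes 1 had an H2AK119ub-only region, Asxl2, a cofactor of BAP1 (chr12:3468634-3468735, BMI1 replicate 2). Bmi1 itself had 0 peaks of any list, and so did Cdkn2a, the classical BMI1 target.

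The developmental lists differed from each other. None of 39 HOX genes, whose median length is 3.74 kb, had an H2AK119ub-only region and 1 had a shared region, beside 1.07% of genes under 10 kb with an H2AK119ub-only region. Among 63 other developmental transcription factors 9 did (14.3%, beside 4.16% of all protein-coding genes), against 11 with a shared region, and these included long genes such as Sox5, Foxp1, Foxp2, Rora, Nfib and Zfhx3. Foxp1, a forkhead factor of heart and immune cells that spans 597 kb, had 2 regions, both without a BMI1 peak, and 0, 5 and 3 H2AK119ub peaks. Zic4, a zinc finger factor gene of 23.7 kb, had 1 (chr9:91378115-91378217), which lay 93 bp from a BMI1 peak. Of 28 cardiac and mesoderm factors Mef2c alone (3.57%), a myocyte enhancer factor, had an H2AK119ub-only region (chr13:83654160-83654261), 60.7 kb from the nearest BMI1 peak.

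Genes of the cell types a heart preparation could hold gave counts that differed by list, beside 4.16% of all protein-coding genes. None of 25 stromal and fibroblast genes and none of 24 endothelial genes had an H2AK119ub-only region. Lists this short cannot tell a count of 0 from that share of all genes. A shared region was present in 2 and 8 of them, beside 5.77% of all protein-coding genes. Of 14 smooth muscle genes 2 had an H2AK119ub-only region (14.3%), Synpo2 and Cald1, both actin-binding. Of 25 cardiomyocyte genes 4 had one (16%), namely Dmd, Cacna1c, Sgcd and Ctnna3. These genes are long, with 160 and 177 kb for the smooth muscle pair and 2390, 610, 1018 and 1574 kb for the cardiomyocyte genes. Among all protein-coding genes the share was 10.4% at 100 to 200 kb, 54.8% at 500 to 1000 kb and 78.0% at 1000 kb and over. Dmd, the dystrophin gene, spans 2390 kb and had 3 H2AK119ub-only regions and no shared region, with 0, 6 and 5 H2AK119ub peaks and 1, 1 and 0 BMI1 peaks. Cacna1c, the pore subunit of the cardiac L-type calcium channel, had 1, with a peak of BMI1 replicate 2. These counts describe where the mark was called and say nothing about whether the genes were expressed.

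Among 27 superoxide and peroxide removal genes, Sod3 alone had an H2AK119ub-only region, a share of 3.70% near the 4.16% of all protein-coding genes. Sod3 encodes extracellular superoxide dismutase and its region (chr5:52368292-52368485), inside the gene, had peaks of all 3 H2AK119ub lists and of BMI1 replicate 2, and lay 10 bp from a BMI1 region. No Damage list had a peak in or near Sod3. Of 23 INK4, RB and p53 cell cycle genes 1 was counted (4.35%, also near that share), Mdm4, an inhibitor of p53, through the tRNA gene n-TKctt26 that lies 3.36 kb outside it and 44 bp from a BMI1 region.

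Neuronal adhesion and guidance genes had the largest share of the 14 lists, 29 of 50 (58%), with 30 holding a shared region. Their median length was 773 kb, and 60.8% of all 227 protein-coding genes of 500 kb or more had an H2AK119ub-only region, so the share of the list was near that of long genes in general. Lsamp, a cell adhesion protein of the IgLON family, had 4 such regions and 5 shared ones, and Ntm, of the same family, had 3 and 3. Glutamate and GABA receptor genes (median length 319 kb) had 7 of 29 (24.1%) and potassium channel genes (253 kb) 6 of 31 (19.4%), at or below the 24.9% of all protein-coding genes of 200 to 500 kb. The first list was led by the kainate receptor gene Grik4, whose 3 regions each had a peak of BMI1 replicate 2. Among the potassium channel genes, Kcnk2 and Kcnq3 had 1 peak each of H2AK119ub replicates 2 and 3 and no BMI1 peak.

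Viewed from the BMI1 side, 711 of 4478 BMI1 regions overlapped no H2AK119ub region, fewer than the 2576 of 6341 in the other direction. Of these 711, 573 held a peak of at least 1 H2AK119ub list (80.6%). All other BMI1 regions hold such a peak by definition, so the share over all BMI1 regions is higher and is not given here. At H2AK119ub-only regions 59.4% held a BMI1 peak. The 2 directions cannot be compared directly, because the H2AK119ub lists held 2000, 13487 and 7523 peaks and the BMI1 lists 5020, 7513 and 4072. The protein-coding share was 33.9% there and 33.5% at H2AK119ub-only regions. Among the 6166 regions on which H2AK119ub replicates 2 and 3 agreed, H2AK119ub replicate 1 had a peak in 25.3%, BMI1 replicate 1 in 50.2%, BMI1 replicate 2 in 77.8% and BMI1 replicate 3 in 48.4%. Each BMI1 list thus marked more of these regions than the remaining H2AK119ub list did. That list was also the shortest, with 2000 peaks against 5020, 7513 and 4072 in BMI1 replicates 1, 2 and 3. The part of list length was not tested.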

How the data were processed

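Bowtie2, HOMER 4.8 and GRCm38 are named per the submitters' processing notes, and how peaks were called and Input was used is not given in the sources used here. For each ChIP library the authors deposited 1 peak list (12 lists, 39832 peaks, not pooled), whose score column holds 1 throughout and ranks nothing. Depth is unknown. Regions needed 2 of 3 lists and overlaps 1 bp. Genes, start sites and promoter windows came from RefSeq tables of GRCm38.p6, and no window was given for chromosome 18, so start-site shares leave it out. Gene counts leave out 5 H2AK119ub-only regions outside assembled chromosomes.

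The regions and the 14 gene lists were chosen with earlier results of these data known. Named are H2AK119ub-only regions in 3 H2AK119ub and no BMI1 lists, with a Damage peak, on tRNA or 5S genes, at promoters or gene ends or among the widest, the 20 genes with most and 10 with densest regions, up to 4 genes per list, and Cdkn2a and Bmi1. Foxp2, Nfib and Zfhx3 fall outside this rule and were named after their values were seen. Libraries were compared by two-sided exact permutation tests with Benjamini-Hochberg adjustment over 3 tests, tested on simulated data. Computation used Python 3.11.15, numpy 2.4.6, pandas 2.3.3, scipy 1.17.1 and matplotlib 3.10.9. Some of the genes this rule selects are not reported here.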

Additional observations from a re-analysis of the deposited data

How the results depend on the processing

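The 2576 regions depend on the number of lists required. With all 3 H2AK119ub lists required there were 84, 5.36% of H2AK119ub regions, of which 75% had a peak of 1 BMI1 list and 39.8% a centre in a protein-coding gene. With BMI1 regions from any 1 list there were 1046 (16.5%). With peaks within 1 kb merged, the share without a BMI1 region was 38.8% and that with 1 BMI1 list 55.8%. The share of centres in genes was 42.5% over all annotated genes. An overlap of at least 50%, a BMI1 region within 1 kb counted as overlap, autosomes only, and lists without tRNA genes, 5S genes and the immunoglobulin heavy chain locus moved none of the 3 shares beyond counting error, and the number of regions was then 2395 (autosomes only) to 2607. Leaving out each library in turn gave 98 to 4097 regions (5.91% to 64.6%), 44.2% to 75.7% with 1 BMI1 list and 33.5% to 40.9% in genes. The difference between antibodies then ranged from -0.0689 to 0.349 for the left-out ratio, from -2.83 to 38.8 percentage points for the left-out share and from -0.709 to 1.08 for Damage peaks, with the negative values without H2AK119ub replicate 2 (both left-out measures) and without Damage H2AK119ub replicate 1. The cause was not tested. With the replicate number as a block the differences were 0.0957, 13.1 and 0.366 (exact permutation p = 0.75, 0.75 and 1, smallest possible p 0.25), which changed no call. Deviations of same-numbered H2AK119ub and BMI1 lists correlated at 0.173, 0.0842 and -0.0533 over 17310 regions, so the numbers are not shown to pair the samples. Of 55 named genes, 51 had another number of H2AK119ub-only regions with all 3 H2AK119ub lists required, and likewise without H2AK119ub replicate 2 and without replicate 3. It was another number in 39 with BMI1 regions from any list, in 16, 22 and 12 without BMI1 replicates 1, 2 and 3, in 12 with peaks within 1 kb merged, and in 1 to 9 under each other setting. Without read depth, a missing peak cannot be told from a weak one.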
